A study of Homo sapiens with 2 samples.

Results

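Members of 7 solute carrier families that move amino acids across membranes (SLC1, SLC3, SLC6, SLC7, SLC36, SLC38 and SLC43) were examined in Huh-7, a human cell line established from a hepatocellular carcinoma. They were chosen by symbol: each gene whose symbol in the array's annotation begins with one of these family names, with a probe set of its own and pseudogenes left out, 59 of the 18417 genes measured. Total RNA was hybridised to 2 arrays, 1 of cells that received NC (labelled as the control) and 1 of cells transfected with siRNA against DEPDC1, a DEP domain protein. Both were collected after 72 h. The sources used here give neither the siRNA's sequence nor what NC is. With 1 array per group there was no replicate check, so the differences below carry no error and no p-value, and they compare these 2 arrays rather than the treatments. The families were picked with this contrast already known, so all differences are given as a description.

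Amino acid transporters bring in the building blocks of protein and glutathione, export others in exchange, and return amino acids from lysosomes to the cytosol. SLC1 and SLC38 members are mostly driven by the sodium gradient, and some SLC36 members are coupled to protons. SLC7 light chains are exchangers that need an SLC3 heavy chain to reach the plasma membrane. In liver, periportal and perivenous hepatocytes take up, release and recycle glutamine and glutamate through different carriers. Amino acid shortage activates the kinase GCN2 and the transcription factor ATF4, which is known to induce several SLC7, SLC3, SLC1 and SLC38 genes.

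Detection was set at 4.66 on the log2 scale, the median over all probe sets, to be met by at least 1 of a gene's 2 values. The level was set by convention, without a measured background. On that count 34 of the 59 members and 11352 of all genes were detected, and none of these 34 members had a value under the threshold on either array. Differences are siRNA minus NC on the log2 scale, and 1 unit is a 2-fold difference. DEPDC1 itself had 7.82 on the NC array and 5.15 on the siRNA array, 6.37-fold lower. All 12 hepatocyte markers measured were detected, albumin at 11.89 and 11.39, while the summed linear signal of these markers was 0.660 times the NC value on the siRNA array. Of 10 fibroblast and stellate cell markers, 6 were detected, and their list's summed linear signal went from 506 to 1542, mainly through LUM (7.64 and 9.95) and FBN1 (5.79 and 7.98). DCN, PDGFRB, THY1 and ACTA2 were under the threshold on both arrays, as were all 5 endothelial markers. Both samples are labelled as Huh-7 cells, so these genes are read as levels within the line and not as counts of cell types. In bulk RNA, fewer cells with a transcript and less of it per cell cannot be told apart.

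Among the 34 detected members, SLC1A3, SLC7A7, SLC7A11 and SLC1A4 were at least 2-fold higher in the siRNA array (4 genes), and SLC38A3 alone was lower by that much (1 gene). That is 11.8% and 2.94% of the detected members, beside 1.94% of all detected genes on the higher side and 0.863% on the lower side. At a fold of 1.5, 6 members were higher and 2 lower (17.6% and 5.88%), against 6.03% and 3.74% of all detected genes. These 8 genes include the heavy chain SLC3A2 and the light chain SLC7A5 on the higher side and SLC6A14 on the lower side. The other 26 members differed by less than 1.5-fold. In all, 18 of 34 had a higher value in the siRNA array, 15 a lower value and 1 the same value, and 49.9% of all detected genes had a higher value. The members' median difference was 0.05 and that of all detected genes 0.00, with the members going both ways. Without SLC7A6OS and the monoamine carriers, a choice made after seeing the data, the members' median was 0.09. The differences of the 34 members had an SD across genes of 0.83 against 0.40 for all detected genes. Their quartiles 1 and 3 lay closer, at -0.23 and 0.43 for the members and -0.18 and 0.21 for all detected genes. No test was made of these shares, because the contrast was used to pick the families.

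**Figure D1:**
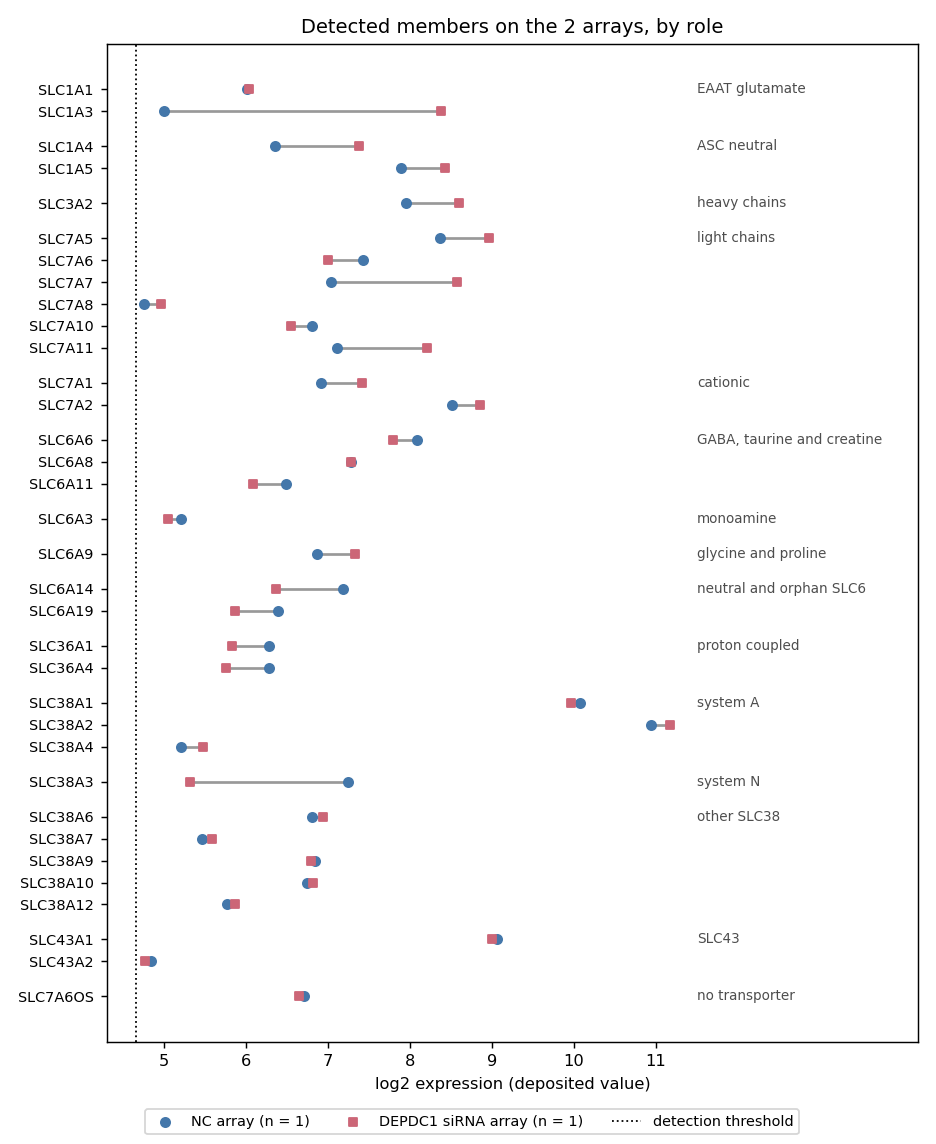
Log2 expression (horizontal axis, deposited values) of the 34 detected members, 1 row per gene in blocks by role; circles are the NC array, squares the siRNA array, 1 array each, and the dotted line is the detection threshold of 4.66. The longest lines belong to SLC1A3 (4.998 to 8.37) and SLC38A3 (7.25 to 5.32), while most other pairs of symbols lie close together.

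The glutamate carrier SLC1A3 had the largest difference of all members. SLC1A3 (probe set 8104930, Entrez gene 6507) encodes EAAT1, a high-affinity sodium-coupled carrier of glutamate and aspartate known best from astrocytes. Its value was 4.998 on the NC array, a little above the detection threshold, and 8.37 on the siRNA array, a difference of 3.37 or 10.4-fold higher. Only 1 of the detected genes had a larger positive difference. The related carrier SLC1A1 (EAAT3) did not share it, with 6.01 and 6.03. Its difference of 0.02 was -0.04 when each array was centred on its median over detected genes, so its direction was not settled. SLC1A2, SLC1A6 and SLC1A7, which encode the other glutamate carriers, were under the threshold on both arrays. Of the astrocyte and oligodendrocyte markers, GFAP had 4.81 and 4.74, AQP4 4.73 and 4.89, MBP 4.86 and 4.95, and S100B and OLIG2 were not detected. The summed linear signal of these 5 markers was 103 on the NC array and 105 on the siRNA array. Of 5 neuronal markers, MAP2, a microtubule-associated protein, was under the threshold on the NC array (4.29) and had 6.23 on the siRNA array. MAP2 was thus at least 2.98-fold higher. SYT1, synaptotagmin, had 5.50 and 6.49, while SNAP25 had 5.19 and 4.68, and RBFOX3 and STMN2 were not detected. That list's summed linear signal was 134 and 222. Of the fibroblast markers, LUM and FBN1 were higher as well, and COL1A2 had 5.43 and 6.50. COL1A1 (5.81 and 5.87), COL3A1 (5.01 and 4.97) and PDGFRA (6.11 and 6.20) were nearly level. Any link between the marker genes and the difference of SLC1A3 was not tested.

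The neutral amino acid exchangers of the same family were higher in the siRNA array as well. SLC1A4 (probe set 8042310, Entrez gene 6509) encodes ASCT1, a carrier of alanine, serine and cysteine. It had 6.36 on the NC array and 7.38 on the siRNA array, 2.03-fold higher. That fold lies next to the 2-fold limit: the difference of 1.02 was 0.96 after centring and 0.99 after quantile normalization, which left 3 members at least 2-fold higher. The member nearest to the limit from below, by size of difference, was SLC6A14 at -0.82. SLC1A5 encodes ASCT2, a major glutamine carrier of dividing cells. It had 7.89 and 8.43 by its brighter probe set (difference 0.54), but 5.03 and 5.06 by its other probe set (0.03), so the 2 probe sets of this gene disagreed.

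Upstream sequences are shown for the 3 genes that were at least 2-fold higher and have an entry in the RefSeq promoter table of GRCh38.p14. SLC1A5 was added because it holds the only other match among the members with an entry. SLC7A11 and SLC38A3 are among the 13 members without an entry, so they were not searched. For SLC1A3 and SLC1A5 the window shown is the 1 of 3 that holds the match, and for SLC1A4 and SLC7A7 it is the first in the table. They show where the core of the C/EBP-ATF response element, the element through which ATF4 acts on amino acid genes, does and does not occur. Each is the 250 bases before an annotated start, 5′ to 3′ on the gene's strand, with any match to TGATGNAAN on either strand in capitals. The windows are chr5:36596338-36596587 (SLC1A3, plus strand), chr19:46784815-46785064 (SLC1A5, minus strand), chr2:64988229-64988478 (SLC1A4, plus strand) and chr14:22819792-22820041 (SLC7A7, minus strand). SLC1A3, SLC1A5 and SLC7A7 each have 3 annotated windows and SLC1A4 has 2, and the arrays do not tell which start was in use.
SLC1A3: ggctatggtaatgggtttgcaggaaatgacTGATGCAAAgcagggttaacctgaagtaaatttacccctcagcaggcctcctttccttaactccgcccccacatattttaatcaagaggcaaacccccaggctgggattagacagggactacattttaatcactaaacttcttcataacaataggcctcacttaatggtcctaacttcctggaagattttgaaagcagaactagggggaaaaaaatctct
SLC1A5: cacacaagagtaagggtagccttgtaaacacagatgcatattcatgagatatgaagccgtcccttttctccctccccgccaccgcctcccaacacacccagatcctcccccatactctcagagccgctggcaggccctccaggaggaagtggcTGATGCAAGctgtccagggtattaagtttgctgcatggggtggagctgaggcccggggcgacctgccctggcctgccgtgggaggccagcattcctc
SLC1A4: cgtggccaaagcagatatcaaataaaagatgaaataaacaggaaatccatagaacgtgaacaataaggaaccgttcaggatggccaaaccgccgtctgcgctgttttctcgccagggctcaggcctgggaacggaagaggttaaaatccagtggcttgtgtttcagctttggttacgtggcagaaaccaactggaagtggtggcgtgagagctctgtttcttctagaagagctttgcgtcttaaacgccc
SLC7A7: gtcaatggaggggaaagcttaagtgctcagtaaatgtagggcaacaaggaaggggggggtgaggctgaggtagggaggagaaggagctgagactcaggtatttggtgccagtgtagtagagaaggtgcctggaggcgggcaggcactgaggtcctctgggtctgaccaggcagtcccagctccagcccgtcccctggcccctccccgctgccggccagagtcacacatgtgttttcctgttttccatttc
The match in SLC1A3 reads TGATGCAAA and begins at base -220 from the start, and that in SLC1A5 reads TGATGCAAG and begins at base -97. These were the 2 matches among 68 windows of the 46 members in the table, 2.94% of the windows, where 3.13% of all 35116 windows hold the motif. The members' share was thus near that of all promoters. The SLC1A3 window shown has 43.2% G and C and 1 CpG, and the median of all windows was 58% and 11. The SLC1A5, SLC1A4 and SLC7A7 windows have 59.6%, 48.4% and 58.8% G and C. A match is a run of letters and no measured site, and a window without one says only that these letters are not in it.

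Heteromeric exchangers pair a heavy chain of the SLC3 family with an SLC7 light chain that carries the substrate. SLC3A2, the heavy chain known as CD98, had 7.95 on the NC array and 8.60 on the siRNA array, 1.57-fold higher. Of its 6 light chains, all of them detected, 4 had a higher value and 2 a lower value in the siRNA array. The shares over all detected genes were 49.9% and 48.1%. SLC7A7 (probe set 7977786, Entrez gene 9056) encodes a light chain that exports arginine and lysine in exchange for sodium and neutral amino acids, and its loss causes lysinuric protein intolerance. It had 7.04 and 8.57, 2.89-fold higher. SLC7A6 encodes the close relative with the same kind of exchange, and its value went the other way, with 7.43 on the NC array and a 1.35-fold lower value on the siRNA array (difference -0.43). SLC7A11 (probe set 8102800, Entrez gene 23657) encodes xCT, which takes up cystine for glutathione synthesis and exports glutamate. It had 7.11 on the NC array and 8.21 on the siRNA array, 2.15-fold higher. SLC7A5 encodes LAT1, a carrier of leucine and other large neutral amino acids, and had 8.37 and 8.96, 1.51-fold higher.

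The remaining light chains differed less. SLC7A8 encodes LAT2 and had 4.76 and 4.96, just above the threshold on both arrays. SLC7A10 encodes a carrier of small neutral amino acids and D-serine and had 6.81 and 6.55. The other heavy chain, SLC3A1, forms the cystine and dibasic amino acid exchanger of kidney and intestine with SLC7A9, and pairs in kidney with SLC7A13, a carrier of aspartate, glutamate and cystine. These 3 genes were under the threshold on both arrays.

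**Figure D2:**
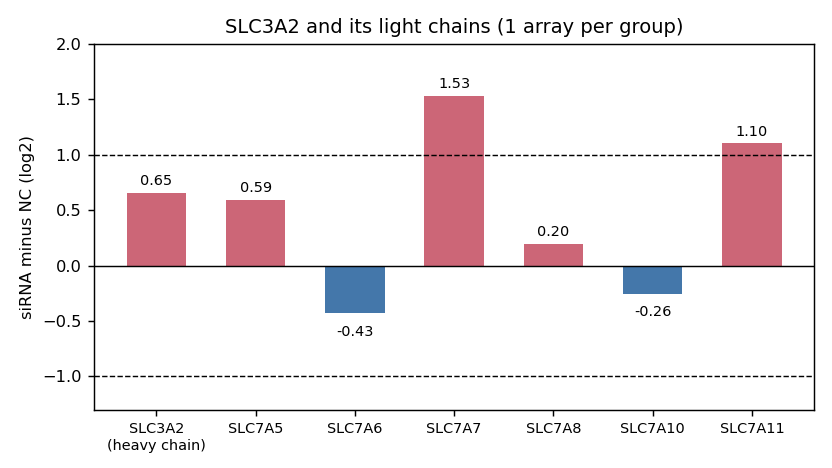
Difference between the arrays (vertical axis, siRNA minus NC on the log2 scale) of the heavy chain SLC3A2 and its 6 light chains, 1 array per group; bars start at 0 and the dashed lines mark 2-fold. SLC7A7 (1.53) and SLC7A11 (1.10) pass the upper line, and SLC7A6 (-0.43) and SLC7A10 (-0.26) point down.

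Carriers of cationic amino acids in the SLC7 family were somewhat higher in the siRNA array. SLC7A1, the widely expressed carrier of arginine, lysine and ornithine, had 6.92 and 7.41 (difference 0.50). SLC7A2, the form found in liver, had 8.51 and 8.86 (0.34). Neither reached 1.5-fold. SLC7A3, SLC7A4 and the orphan SLC7A14 were not detected.

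SLC38A3 was the member with the largest decrease in value. SLC38A3 (probe set 8079931, Entrez gene 10991) encodes SNAT3, the system N carrier that moves glutamine, histidine and asparagine in exchange for protons and is abundant in perivenous hepatocytes. It had 7.25 on the NC array and 5.32 on the siRNA array, a difference of -1.93 or 3.81-fold lower, the 8th lowest difference among all detected genes. Of the 12 hepatocyte markers, 9 had a lower value on the siRNA array and 3 a higher value, where 48.1% of all detected genes were lower. At least 2-fold lower were 5 markers and at least 2-fold higher 1, beside 0.863% and 1.94% of all detected genes. The part of these markers in the difference of SLC38A3 was not tested. Among them AFP, alpha-fetoprotein (10.89 and 8.92), and SERPINA1, alpha-1-antitrypsin (7.86 and 6.19), were lower, and TTR, transthyretin, was higher (8.31 and 9.72). The other system N gene, SLC38A5, was under the threshold on both arrays. Glutamine synthetase, GLUL, which makes the glutamine of perivenous hepatocytes and was named after its value was seen, had 9.10 and 9.06 by probe set 8154951. Where that probe set lies in the genome was not checked, so it may not read this gene alone.

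System A carriers, which take up alanine and glutamine with sodium, differed by less than 1.5-fold. SLC38A2, whose product SNAT2 is known to be induced when amino acids run short, had 10.93 and 11.17 (difference 0.23). SLC38A1 had 10.07 and 9.97 (-0.10). SLC38A4, a system A carrier of liver, had 5.21 and 5.48 (0.27). SLC38A1, SLC38A2 and SLC38A4 are neighbours in the RefSeq gene table with no other protein-coding gene between them.

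The remaining SLC38 genes were nearly level between the arrays. SLC38A9, a lysosomal carrier that signals arginine to mTORC1, had 6.84 and 6.79. SLC38A7, a lysosomal carrier of glutamine and asparagine, had 5.46 and 5.58. SLC38A6 had 6.80 and 6.94, SLC38A10 had 6.74 and 6.82, and SLC38A12, an orphan known earlier as TMEM104, had 5.77 and 5.87. The 5 differences lay between -0.05 and 0.14. SLC38A8 and SLC38A11 were not detected.

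The detected carriers of the SLC36 family were lower in the siRNA array. SLC36A1, which exports small neutral amino acids from lysosomes and acts upstream of mTORC1, had 6.28 and 5.83 (difference -0.45). SLC36A4, a carrier of proline and tryptophan, had 6.28 and 5.76 (-0.52). Neither reached 1.5-fold. SLC36A2 and SLC36A3, which lie beside SLC36A1, were not detected.

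In the SLC6 family 7 of 18 members were detected, of which 5 had a lower value, 1 a higher value and 1 the same value. Of all detected genes, 48.1% were lower and 49.9% higher. SLC6A14, a broad carrier of neutral and cationic amino acids driven by sodium and chloride, had 7.19 on the NC array and 6.37 on the siRNA array, 1.76-fold lower. SLC6A19, the main neutral amino acid carrier of intestine and kidney, had 6.39 and 5.87 (difference -0.52). CLTRN, collectrin, which carries SLC6A19 to the plasma membrane in kidney, had 4.94 and 5.14. SLC6A6, the taurine carrier, had 8.08 and 7.79 (-0.29), and SLC6A11, a GABA carrier, 6.49 and 6.09 (-0.40). SLC6A9, the glycine carrier GLYT1, was the member with a higher value, 6.87 and 7.33 (0.46).

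The creatine carrier SLC6A8 had 7.28 on both arrays, equal to the last digit. Such equal pairs occurred in 1940 of the 33297 probe sets (5.83%), including 4 undetected members. SLC6A3 encodes the dopamine transporter, which carries no amino acid but shares the family's name, and had 5.21 and 5.05. The other monoamine carriers, SLC6A2 and SLC6A4, were not detected.

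The SLC43 carriers were level. SLC43A1, a facilitator of large neutral amino acids known as LAT3, had 9.07 and 9.003, and its relative SLC43A2 had 4.84 and 4.77. SLC43A3 is annotated only to a probe set it shares with another gene and has no value here. SLC7A6OS met the symbol rule as a neighbour of SLC7A6 and encodes no transporter; it had 6.71 and 6.64.

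The 25 members under the threshold on both arrays had values from 2.15 to 4.397. Besides those named above they were SLC6A5, SLC6A7, SLC6A12, SLC6A13, SLC6A15, SLC6A16, SLC6A17, SLC6A18 and SLC6A20. Their differences ran from -0.43 to 0.59, with 11 higher, 10 lower and 4 equal, and none reached 2-fold. The largest was that of SLC6A16, an orphan carrier, with 3.81 and 4.397. Differences of such dim probe sets can be understated by background signal.

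**Figure D3:**
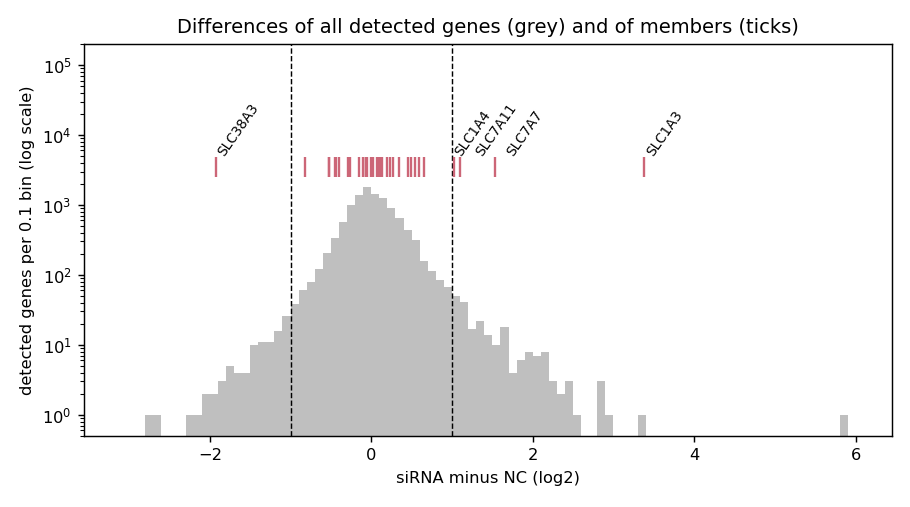
Histogram of the difference (horizontal axis, siRNA minus NC on the log2 scale) of the 11352 detected genes in bins of 0.1, with the count on a log axis; ticks above it are the 34 detected members and the dashed lines mark 2-fold. Most ticks lie between the lines over the bulk of all genes, with SLC38A3 to the left and SLC1A4, SLC7A11, SLC7A7 and SLC1A3 to the right.

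Genes around these carriers were read from 5 lists. Beside each list's counts, 49.9% of all detected genes had a higher value and 48.1% a lower value. Of 28 detected genes in the ATF4 branch of the amino acid response, 23 had a higher value in the siRNA array and 5 a lower value. Their median difference was 0.39 against 0.00 for all detected genes. PCK2, mitochondrial phosphoenolpyruvate carboxykinase, was 2.90-fold higher (5.11 and 6.65) and VLDLR, a lipoprotein receptor, 2.62-fold higher (6.28 and 7.67). ASNS, asparagine synthetase, had 8.37 and 9.11, and PYCR1, a proline synthesis enzyme, 6.31 and 7.01. ATF4 mRNA itself had 9.17 and 9.40 by probe set 8180337. Where that probe set lies in the genome was not checked, so it may not read this gene alone. DDIT3, which encodes the stress factor CHOP, had 4.82 and 4.78, just above the threshold on both arrays. ATF4 and DDIT3 were named after their values were seen.

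In the list of carriers of other families, 13 of the 16 detected were lower with the siRNA and 3 higher, with -0.09 as the median difference. Of all detected genes, 48.1% had a lower value. Without SLC47A1 and SLC29A4, which carry no amino acids and were left out after their values were seen, 11 of 14 had a lower value. The largest difference was that of SLC47A1, an exporter of organic cations, 2.01-fold lower (6.84 and 5.84). SLC29A4, which carries monoamines, had 7.10 and 6.43. SLC16A10, a carrier of aromatic amino acids, had 7.37 and 6.89, and SLC17A5, the lysosomal sialic acid carrier, 7.54 and 8.003. The lysosomal cystine exporter CTNS, named after its value was seen, had 6.08 and 5.99.

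Sensors upstream of mTORC1 were level as a list, with 11 of 30 detected genes higher, 17 lower, 2 equal and a median of -0.01. None reached 2-fold. RRAGD, a Rag GTPase, had 6.76 and 6.12, and SESN1, a member of the leucine-sensing sestrins, 5.95 and 5.39. TARS2, the mitochondrial threonyl-tRNA synthetase, had 4.72 and 5.30, and SEC13, a GATOR2 subunit, 8.89 and 9.40.

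Partners and regulators of the carriers numbered 13 detected, 9 of them higher and 4 lower, with 0.08 as the median difference. SGK1, a kinase that promotes the surface level of several carriers, had 6.22 and 5.24, just under 2-fold lower. NEDD4, a ubiquitin ligase, had 6.62 and 7.52. SGK2 had 4.93 and 5.23, and ITGB1, an integrin that binds CD98, 8.12 and 8.41.

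Enzymes that use glutamate, glutamine, cystine and glutathione numbered 17 detected, 8 of them higher and 9 lower, with -0.03 as the median difference. Beside the higher value of the cystine carrier SLC7A11, the modifier subunit of the enzyme that begins glutathione synthesis, GCLM, was 2.03-fold lower (8.02 and 6.99). Its catalytic partner GCLC had 7.09 and 7.01, and glutathione synthetase, GSS, 8.09 and 7.94; these were named after their values were seen. ARG2, the mitochondrial arginase, had 5.39 on the NC array and lay under the threshold on the siRNA array, at least 1.66-fold lower. PPAT, which uses glutamine to begin purine synthesis, had 6.85 and 6.16.

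**Figure D4:**
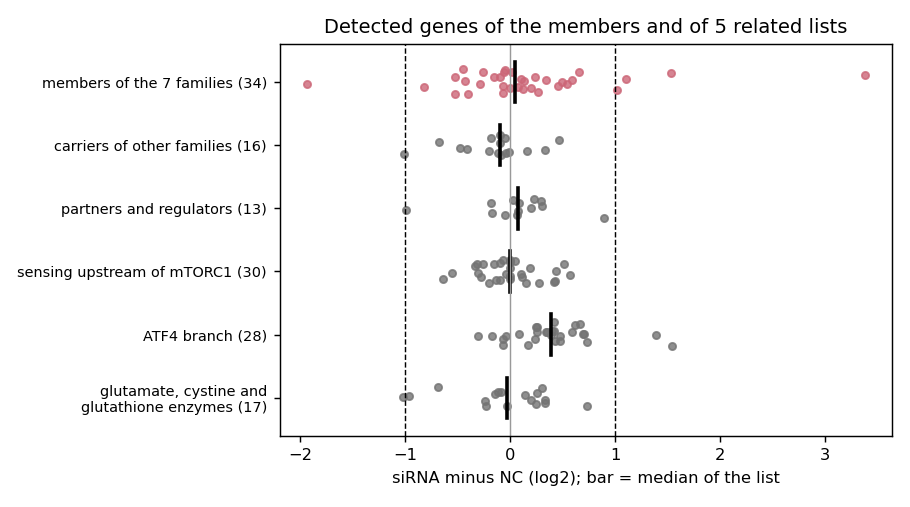
Difference (horizontal axis, siRNA minus NC on the log2 scale) of each detected gene among the members and in 5 related lists, 1 point per gene with the number of genes in brackets; vertical spread within a list is only to separate points, black bars are medians and dashed lines mark 2-fold. The median of the ATF4 branch (0.39) lies to the right of 0, and that of the members (0.05) lies close to 0 with 5 points beyond the dashed lines.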

How the data were processed

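The deposited table gives 1 value per probe set and array. Its unit is not stated. The deposited values ran from 1.39 to 12.7 with near-equal distributions (sorted columns differed by at most 0.0997), so they were taken as log2 expression already normalized between arrays by the authors, and used unscaled. The submitters' processing notes name Transcriptome Analysis Console 3.0 and Affymetrix Expression Console; their settings are not given in the sources used here. Gene names came from GEO's annotation of the platform, with symbols updated by Entrez identifier against RefSeq GRCh38.p14 (19429 of 19460 probe sets with 1 gene matched; 1754 had several genes and 12083 none listed). Of several probe sets of a gene, the brightest by mean was used.

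Values and differences were computed with Python 3.11.15 and pandas 2.3.3. The calling rule was also run on simulated data with shifts above the cut, which checks the code only and not these arrays. Text values: all detected members, and up to 4 detected genes of largest absolute difference per related list; others are marked, apart from marker genes, DEPDC1 and CLTRN. The members and lists were chosen with earlier results of these data known. Alternatives covered the threshold, the probe set per gene, scaling, floored values and, added after seeing the data, leaving out SLC7A6OS and monoamine carriers. Protein sequences were not used here.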

Additional observations from a re-analysis of the deposited data

How the results depend on the processing

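No paired analysis was possible because each group had 1 array. Under the 8 alternatives, 3 or 4 members were at least 2-fold higher and 1 was at least 2-fold lower. SLC1A4 is the gene that left the higher count, at 0.96 after centring each array and 0.99 after quantile normalization. Centring shifted all differences by -0.06, which moved the median difference of all detected genes from 0 to -0.06. The number of members with a higher value was 29 without the filter on low values, because all 59 members then counted. Most alternatives leave a single member's difference as it is by construction: the filters and the floor do not touch values above the threshold, and SLC1A5 is the detected member with 2 probe sets, at 0.03 by the other. The members' median difference was 0.14 at a threshold of the 75th percentile of all probe sets, where that of all detected genes was 0.02. Other alternatives lowered the members' median from 0.05. It was 0 without the filter on low values and 0.03 by the probe set with the smallest absolute difference. After quantile normalization it was 0.02, and after centring -0.01. Having 2 arrays limits the precision throughout.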
